A study of Mus musculus with 10 samples.

Results

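Amino acid catabolism enzymes are the liver's machinery for breaking amino acids down, and 39 genes encoding them were examined here among the 15126 genes listed in RNA-seq of *db/db* mouse livers. The 39 genes come from a written list of such enzymes, were matched by symbol, and each matched 1 gene of the deposited table. The livers described are the AAV8-Control group, which was 5 livers of *db/db* mice infected with adeno-associated virus 8 (AAV8), a serotype with tropism for hepatocytes, that encoded eGFP. *db/db* mice lack a functional leptin receptor and are obese and diabetic. Mice were 10 weeks old and livers were taken 5 weeks after infection. The promoter in the vector was not given in the sources used here. The labels also mention cultured primary hepatocytes and adenovirus, and the methods of the study, which describe livers, were followed. Levels and their spread between the 5 livers are given as a description, with no test.

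Levels are in CPM, a gene's reads per 1000000 reads counted on genes in that library. The 5 libraries held 19499795 to 35498596 such reads, and the 39 genes rested on 168 reads or more in every liver, where a count of 0 would allow 0.0845 to 0.154 CPM by counting error alone. Hepatocyte markers were abundant, with 6 genes summing to 93205 to 128145 CPM. Markers of Kupffer cells, sinusoidal endothelial cells and stellate cells were also present, at 127 to 257, 105 to 199 and 235 to 315 CPM, and the sums for cholangiocytes and erythroid cells were 33.5 to 53.9 and 262 to 327 CPM. Lymphocyte and neutrophil markers summed to at most 2.84 and 1.35 CPM. The 3 adipocyte markers summed to 11.5 and 9.39 CPM in livers 1 and 2 and to 1.24 to 3.21 CPM in the others. Fewer cells that express a gene and less of its RNA per cell cannot be told apart in bulk tissue.

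Hepatocytes remove amino nitrogen by transamination and deamination and deliver it to the urea cycle as ammonia and aspartate, while the carbon skeletons become pyruvate, Krebs cycle intermediates or acetyl-CoA. Glucagon, glucocorticoids and fasting are classical inducers of *Tat* and *Sds*, and a carbon skeleton that reaches pyruvate or oxaloacetate can be used for gluconeogenesis. Branched-chain amino acids are an exception in that their transamination occurs largely outside the liver, which oxidizes the resulting ketoacids.

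To show the sequence upstream of the most abundant pathway and of the most variable gene, promoters are given for the 5 tyrosine pathway genes and for *Csad*. The RefSeq promoter table, on GRCm38.p6, gives 300 bases for each promoter, 250 before and 50 after the start, and it held 38 promoters for 33 of the 39 genes. *Sds*, *Sdsl*, *Gls2*, *Gpt*, *Dbt* and *Cdo1* were not among them. Sequences run 5′ to 3′ on the strand of the gene, and capitals mark TTGCNNAA on either strand, a form of the C/EBP motif, or TGACG on either strand, a shorter site of the cAMP response element (CRE). *Gstz1* and *Csad* each have a promoter at 2 starts.
*Tat*, chr8:109990186-109990485, forward strand: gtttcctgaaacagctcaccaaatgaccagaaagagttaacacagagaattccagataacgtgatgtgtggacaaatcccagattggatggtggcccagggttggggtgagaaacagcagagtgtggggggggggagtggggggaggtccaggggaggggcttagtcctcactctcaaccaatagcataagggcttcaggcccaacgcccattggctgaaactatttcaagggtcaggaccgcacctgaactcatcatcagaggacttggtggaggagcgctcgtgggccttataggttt
*Hpd*, chr5:123182674-123182973, reverse strand: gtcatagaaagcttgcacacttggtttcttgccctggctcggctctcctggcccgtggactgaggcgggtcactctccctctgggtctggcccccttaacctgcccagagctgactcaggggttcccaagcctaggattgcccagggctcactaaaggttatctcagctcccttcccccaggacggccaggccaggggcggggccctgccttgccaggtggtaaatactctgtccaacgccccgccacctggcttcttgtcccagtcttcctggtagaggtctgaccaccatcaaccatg
*Hgd*, chr16:37579903-37580202, forward strand: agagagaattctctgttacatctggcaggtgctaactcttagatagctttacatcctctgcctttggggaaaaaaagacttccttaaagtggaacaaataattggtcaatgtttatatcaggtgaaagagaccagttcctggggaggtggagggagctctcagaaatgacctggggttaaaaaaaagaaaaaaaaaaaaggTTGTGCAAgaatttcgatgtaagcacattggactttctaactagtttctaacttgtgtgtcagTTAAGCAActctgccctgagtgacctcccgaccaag
*Gstz1*, chr12:87146915-87147214, forward strand: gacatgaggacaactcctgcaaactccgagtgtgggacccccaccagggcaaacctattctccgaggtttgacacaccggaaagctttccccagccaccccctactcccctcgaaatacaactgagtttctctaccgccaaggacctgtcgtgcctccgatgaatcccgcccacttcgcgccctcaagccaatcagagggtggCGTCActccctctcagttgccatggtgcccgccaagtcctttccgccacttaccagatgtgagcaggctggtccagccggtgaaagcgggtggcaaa
*Gstz1*, chr12:87157353-87157652, forward strand: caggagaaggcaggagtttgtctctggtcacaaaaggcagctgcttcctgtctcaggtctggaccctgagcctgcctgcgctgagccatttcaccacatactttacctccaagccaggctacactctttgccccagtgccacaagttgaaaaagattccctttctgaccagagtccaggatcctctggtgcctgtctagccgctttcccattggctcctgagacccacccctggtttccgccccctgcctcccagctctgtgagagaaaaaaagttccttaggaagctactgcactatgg
*Fah*, chr7:84605893-84606192, reverse strand: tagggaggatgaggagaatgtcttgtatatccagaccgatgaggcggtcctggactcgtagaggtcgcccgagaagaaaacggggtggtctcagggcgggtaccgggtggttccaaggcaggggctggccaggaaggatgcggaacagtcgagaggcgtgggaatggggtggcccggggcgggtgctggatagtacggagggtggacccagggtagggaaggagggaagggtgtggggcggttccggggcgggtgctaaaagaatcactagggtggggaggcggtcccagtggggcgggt
*Csad*, chr15:102205003-102205302, reverse strand: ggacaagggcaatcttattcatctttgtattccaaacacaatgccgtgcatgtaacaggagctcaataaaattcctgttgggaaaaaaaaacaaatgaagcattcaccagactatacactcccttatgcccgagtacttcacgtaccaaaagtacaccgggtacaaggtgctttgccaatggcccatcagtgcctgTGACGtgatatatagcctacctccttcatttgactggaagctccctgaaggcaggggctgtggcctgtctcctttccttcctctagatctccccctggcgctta
*Csad*, chr15:102188994-102189293, reverse strand: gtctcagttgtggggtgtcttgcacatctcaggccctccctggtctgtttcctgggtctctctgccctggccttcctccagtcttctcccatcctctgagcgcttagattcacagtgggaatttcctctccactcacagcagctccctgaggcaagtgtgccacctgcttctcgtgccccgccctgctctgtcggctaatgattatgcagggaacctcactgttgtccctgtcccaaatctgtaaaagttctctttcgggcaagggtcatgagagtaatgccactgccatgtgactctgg

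The full CRE, TGACGTCA, was in 0 of the 38 promoters and in 1.79% of 32851 promoters of the table. TGACG, searched on both strands and contained in the full CRE, was in 5 of the 38 promoters, of *Aass*, *Csad*, *Ftcd*, *Gstz1* and *Pcca*, and in 20.8% of all promoters. TTGCNNAA, searched on both strands, was in 4 of the 38, of *Aass*, *Gcdh*, *Hal* and *Hgd*, and in 10.8% of all promoters. TATAAA on the forward strand was in 1 of the 38, of *Ftcd*, 29 bases before the start, and in 8.32% of all promoters. In the tyrosine pathway, *Hgd* held C/EBP matches 49 bases before its start and at base 15 after it, and *Gstz1* a TGACG match 47 bases before its upstream start. The upstream promoter of *Csad* held TGACG 54 bases before its start. *Aass* was the single gene with both a C/EBP match and a TGACG match, 22 and 37 bases before its start. No letters of any of these motifs were found in the windows of *Tat*, *Hpd* and *Fah*. These matches are a description of letters.

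The 39 genes together took 17553 ± 1253 CPM (SD, n = 5), or 1.59 to 1.91% of the reads of a liver. To compare levels between genes, CPM was divided by the length of the longest coding transcript in kilobases. On this scale the 39 genes spanned from 5.13 CPM per kilobase for *Asrgl1* to 1616 CPM per kilobase for *Hpd*, a 315-fold range. With all exons as the length, the ends were 5.01 and 1066 CPM per kilobase for the same genes. Per kilobase of coding transcript, the median of the 39 genes was 108 CPM, and the median of the 11033 genes averaging 1 CPM or more that had a coding transcript was 4.80 CPM per kilobase. All 39 genes lay above that median, and 32 of them lay at or above the percentile of 90. The lowest of the 39, *Asrgl1* and *Sdsl*, lay near the middle of these genes, with *Asrgl1* at the percentile of 51.6. The 39 genes were put in order of level. The 5 livers of a gene lay wholly above those of the next gene in 10 of 38 neighbouring pairs, and in the other pairs the ranges overlapped. All genes were measured in the same livers. Some pairs with overlapping ranges, such as *Bckdha* above *Got2*, kept the same order per kilobase in every liver.

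**Figure D1:**
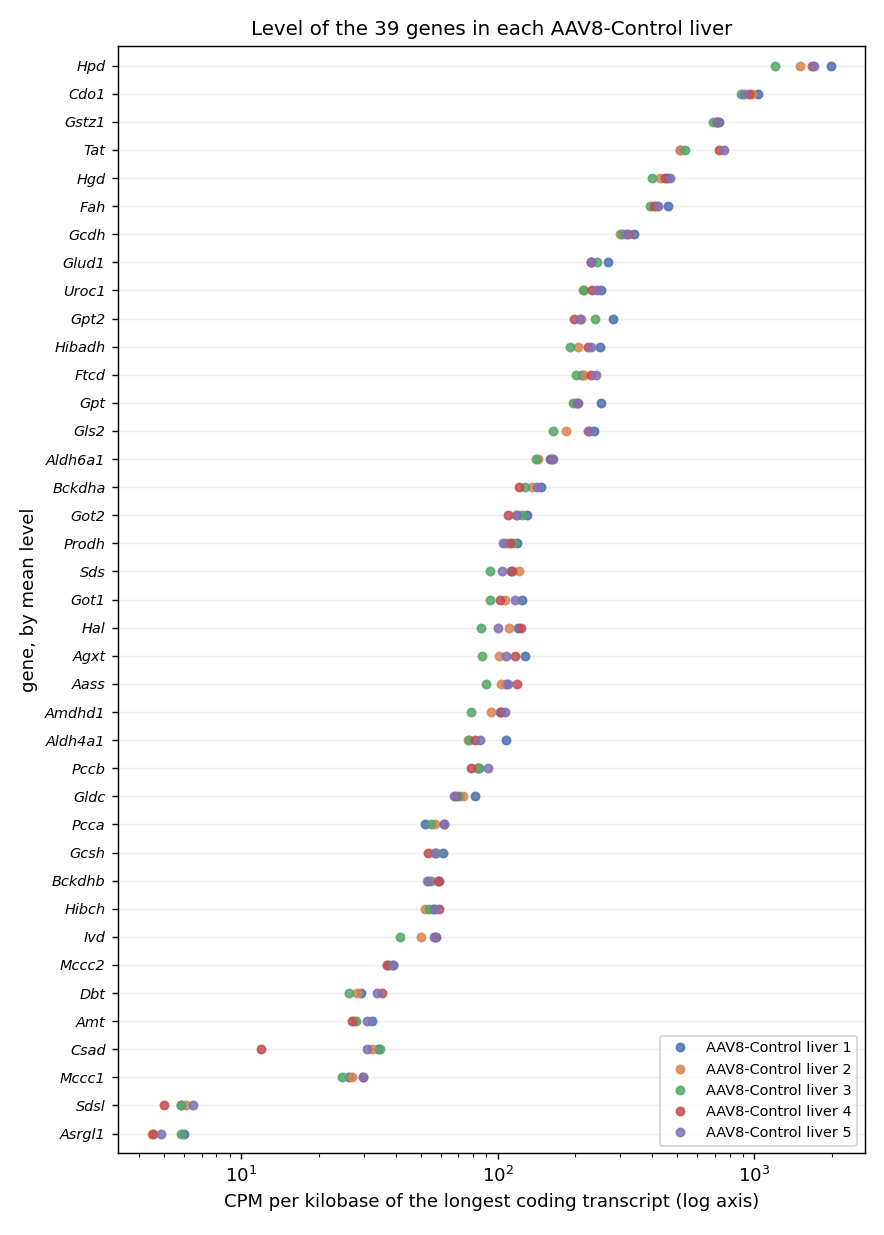
Level of the 39 genes in each of the 5 AAV8-Control livers, in CPM per kilobase of the longest coding transcript on a log axis, with 1 point for each liver and genes ordered by their mean. *Hpd*, *Cdo1*, *Gstz1* and *Tat* lead, *Sdsl* and *Asrgl1* lie under 10 CPM per kilobase, and *Csad* has 1 liver far to the left of its others.

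The tyrosine pathway held 5 of the 6 highest levels per kilobase, and with all exons as the length *Gcdh* took the place of *Gstz1* among these 6. These enzymes convert tyrosine to fumarate and acetoacetate, and their genes summed to 6312 CPM on average. *Hpd* (ENSMUSG00000029445, chromosome 5, 123171807 to 123182727, reverse strand, GRCm38) encodes the dioxygenase that forms homogentisate, and its mean was 1616 ± 286 CPM per kilobase (SD, n = 5). It was at 2783, 2109.9, 1695, 2355 and 2399.5 CPM in livers 1 to 5. Liver 1 was the highest and liver 3 the lowest.

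*Tat* (ENSMUSG00000001670, chromosome 8, 109990437 to 109999803, forward strand) encodes tyrosine aminotransferase, which takes the first step of the pathway. It was at 1220.4, 1216, 1277, 1727 and 1814 CPM in livers 1 to 5, with a mean of 611 ± 124 CPM per kilobase. Livers 4 and 5 lay well above the other three, which were close together. The coefficient of variation (CV), which is the SD as a percentage of the mean, was 20.3% for *Tat* and 17.7% for *Hpd*. The ratio of *Hpd* to *Tat* per kilobase was 2.72 ± 0.702 (SD, n = 5) and ranged from 2.24 to 3.86, with the highest ratio in liver 1.

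The remaining steps of tyrosine breakdown varied less. *Gstz1*, the maleylacetoacetate isomerase, had a CV of 1.99%, the lowest of the 39 genes on CPM but above those of *Mccc2* and *Gcsh*, at 2.49 and 2.53%, after scaling by size factors (DESeq2) or TMM (edgeR). It was at 1208, 1177, 1144, 1185 and 1186 CPM in livers 1 to 5. All 5 livers were close to the mean of 1180.0 ± 23.5 CPM. *Hgd*, homogentisate dioxygenase, was at 678 to 801 CPM and *Fah*, fumarylacetoacetate hydrolase, at 619.9 to 728 CPM. The ranges of *Hgd* and *Fah* overlapped per kilobase, at 440.2 ± 28.5 CPM per kilobase and 419 ± 25.5 CPM per kilobase.

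Sulfur amino acid breakdown held the second highest gene and the most variable one. *Cdo1* (ENSMUSG00000033022, chromosome 18, 46713193 to 46728395, reverse strand) encodes cysteine dioxygenase, which oxidizes cysteine to its sulfinate. It was at 1646, 1555, 1419.6, 1514 and 1451 CPM in livers 1 to 5, and its CV was 5.89%. No liver stood apart for *Cdo1*.

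*Csad* (ENSMUSG00000023044, chromosome 15, 102176999 to 102204724, reverse strand) encodes the sulfinate decarboxylase that acts after *Cdo1* on the way to taurine. It was at 77.9, 73.3, 79.5, 27.1 and 70.2 CPM in livers 1 to 5. Liver 4 was low and the other 4 livers were close together. The CV of *Csad* was 33.3%, the highest of the 39 genes, and 5.65% without liver 4, where the mean was 75.2 ± 4.25 CPM (SD, n = 4). The ratio of *Cdo1* to *Csad* per kilobase was 79.8 in liver 4, and its lowest value over the livers was 25.5. The mean of this ratio was 39.1 ± 22.8 over the 5 livers, 28.9 without liver 4, and 63.7 over the 5 livers with all exons as the length. Liver 4 also had the highest sums of hepatocyte and pericentral hepatocyte markers, 128145 and 10684 CPM, and the lowest of sinusoidal endothelial, stellate and adipocyte markers, 105, 235 and 1.24 CPM, and the part of these in the level of *Csad* was not tested.

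**Figure D2:**
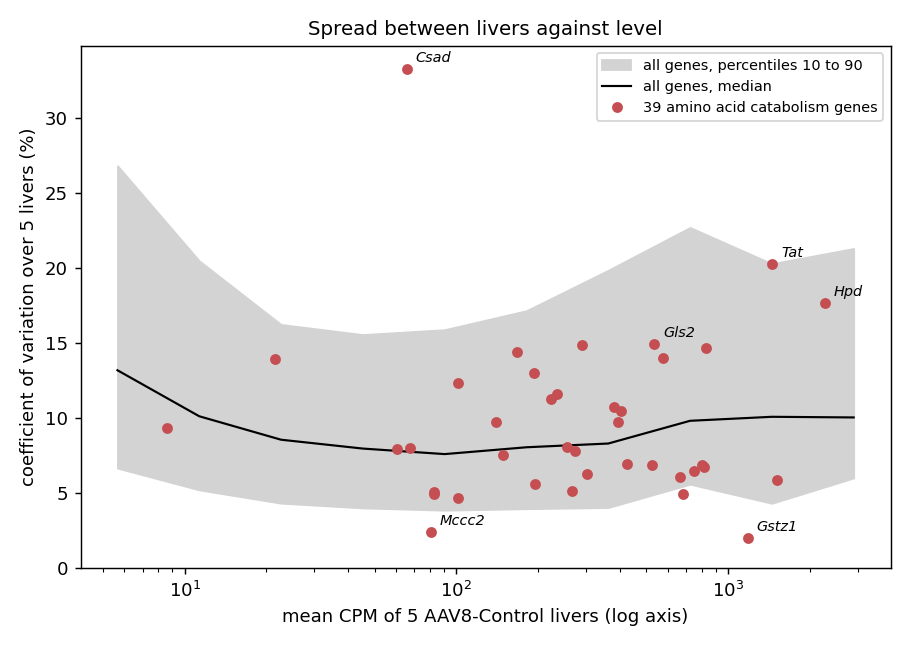
CV over the 5 AAV8-Control livers, in percent, against mean CPM on a log axis, with 1 red point for each of the 39 genes, the median CV of all genes in bins of mean CPM as a line and the percentiles from 10 to 90 as a grey band. *Csad*, *Tat* and *Hpd* lie highest of the red points, and *Gstz1* and *Mccc2* lie lowest.

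Most of the 39 genes differed little between livers. The median CV was 8.00%, against 10.6% for all genes averaging 1 CPM or more and 8.66% for the 7311 of them whose mean lay in the range of the 39 genes. The CV was under 10% for 24 genes, from 10 to 20% for 13 and above that for 2, *Csad* and *Tat*. Counting error alone would give a CV of 0.432 to 7.02% for these genes, and the largest of these values was that of *Sdsl*. Its measured CV was 9.36%, or 5.19% without liver 4, so that a spread beyond counting error was not shown for *Sdsl*. Nor was it shown for *Mccc2*, at 2.40% on CPM and 1.77 and 1.75% after scaling by size factors or TMM, against 2.29% by counting error. *Gcsh* was at 4.92% on CPM, but after that scaling its 2.33 and 2.48% were near the 2.27% of counting error. On CPM, the next highest CVs after *Hpd* were those of *Gls2*, *Aldh4a1*, *Gpt2*, *Agxt* and *Hal*, at 15.0%, 14.9%, 14.7%, 14.4% and 14.0%. Those of *Aldh4a1* and *Gpt2* rested on liver 1 and were 5.05 and 8.19% without it, and those of *Hpd* and *Hal* were 11.5 and 9.01% without liver 3. With size factors and with TMM, the CV of *Aldh4a1* was 11.8 and 11.7% and that of *Gpt2* 11.8 and 11.6%. Those of *Dbt*, 13.7 and 13.6%, and *Ivd*, 12.6 and 12.5%, were then higher.

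Among the livers, liver 1 had the highest value for 24 of the 39 genes, and liver 3 the lowest for 20. After scaling by size factors or TMM, liver 1 was the highest for 11 of the 39 genes under either, and for 23.6 and 23.0% of all genes averaging 1 CPM or more. Liver 4 was then the highest for 13 and 12 of the 39 genes, and for 24.3 and 23.5% of all genes. Liver 3 was then the lowest for 20 of the 39 genes under either, and for 19.8 and 20.4% of all genes. The count for liver 1 depends on the scaling. On CPM, liver 1 was also the highest for 37.8% of all genes averaging 1 CPM or more, and liver 3 the lowest for 22.0% of them. On log2(CPM + 1), the median deviation of the 39 genes from the mean of the 5 livers was 0.11 in liver 1 and -0.10 in liver 3, and that of all genes was 0.06 and -0.01. The summed level of the 39 genes was 19057 CPM in liver 1 and 15855 CPM in liver 3. Liver 1 had the lowest sums of 6 hepatocyte and 6 periportal hepatocyte markers, 93205 and 16877 CPM, and the highest of sinusoidal endothelial, erythroid and adipocyte markers, 199, 327 and 11.5 CPM. Liver 3 had the lowest sum of 8 pericentral markers, 7438 CPM, and the second highest of periportal markers, 18879.5 CPM. Over the 5 livers, periportal sums ran from 16877 to 19409 CPM and pericentral sums from 7438 to 10684 CPM. The library of liver 1 was the smallest and that of liver 3 the largest, and the part of depth or of these markers in the order of livers was not tested.

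**Figure D3:**
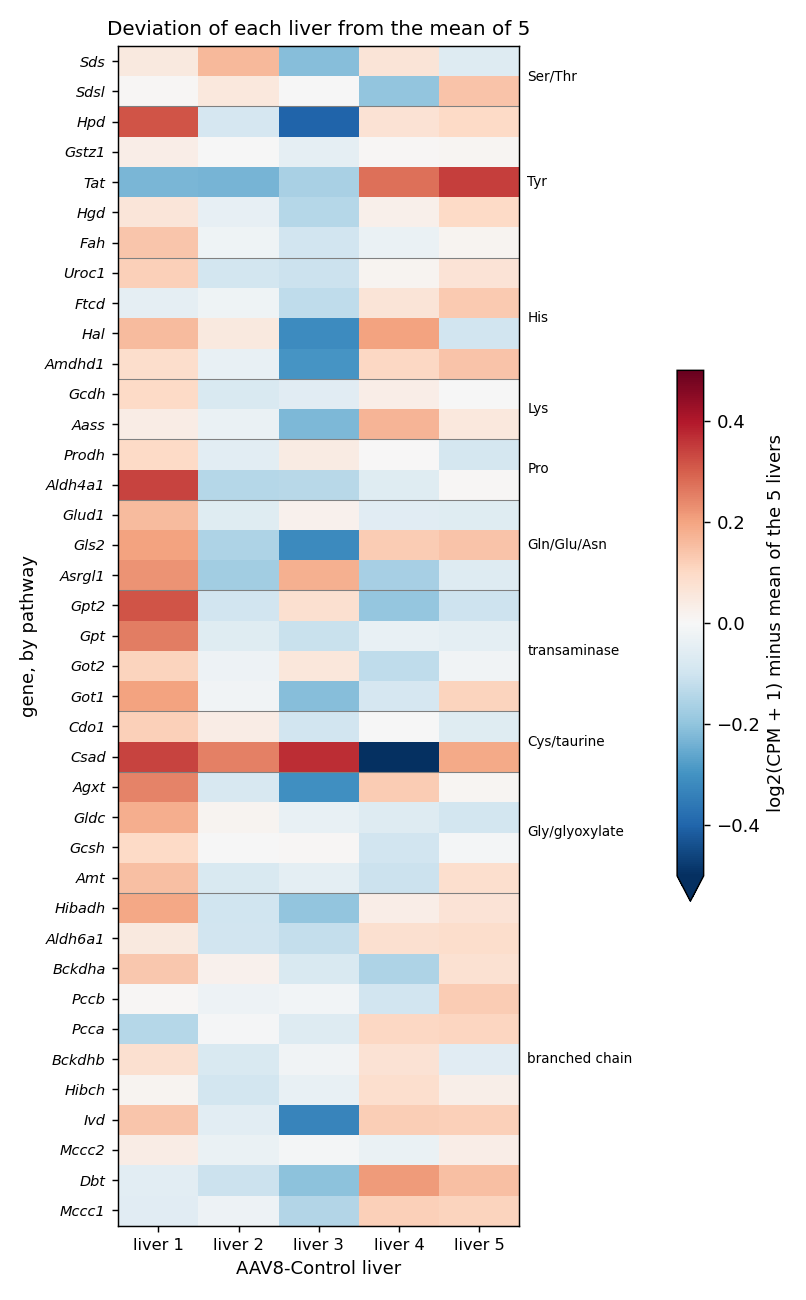
Deviation of each of the 5 AAV8-Control livers (columns) from the mean of the 5, as log2(CPM + 1), for the 39 genes (rows, by pathway), with red above and blue below the mean. On this scale of CPM the column of liver 1 is mostly red, with the highest value for 24 genes against 11 after scaling by size factors or TMM, that of liver 3 is mostly blue, and *Csad* in liver 4 is the darkest blue.

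Histidine breakdown runs from *Hal*, histidine ammonia-lyase, through *Uroc1*, urocanate hydratase, and *Amdhd1*, imidazolonepropionase, to *Ftcd*, which passes a formimino group to tetrahydrofolate. *Hal* (ENSMUSG00000020017, chromosome 10, 93488768 to 93519304, forward strand) was at 637, 590.2, 458, 657 and 534 CPM in livers 1 to 5. Liver 3 was the lowest for all 4 genes. *Uroc1* and *Ftcd* had the higher levels, 232 ± 15.9 CPM per kilobase and 220.2 ± 15.3 CPM per kilobase, and *Hal* and *Amdhd1* the lower, 108 ± 15.2 CPM per kilobase and 96.8 ± 11.3 CPM per kilobase. The ratio of *Hal* to *Uroc1* was 0.466 ± 0.0570 and under 1 in every liver. *Hal* and *Amdhd1* are neighbours on chromosome 10, on opposite strands, with *Amdhd1* at 93523338 to 93540033.

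Lysine is degraded through saccharopine by *Aass*, and *Gcdh*, glutaryl-CoA dehydrogenase, acts later in the route. *Aass* was at 334 to 439 CPM and *Gcdh* at 649 to 732 CPM. *Gcdh* had the higher level, 316 ± 15.6 CPM per kilobase against 106 ± 10.4 CPM per kilobase, and the ranges did not overlap.

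In proline breakdown, *Prodh*, proline dehydrogenase, was at 249.6 to 284 CPM. *Aldh4a1*, which completes the conversion to glutamate, was at 363, 259.6, 260.3, 275 and 288 CPM in livers 1 to 5. Liver 1 stood apart from the others for *Aldh4a1* on CPM. The ratio of *Prodh* to *Aldh4a1* was 1.32 ± 0.150, and it turned to 0.585 when all exons were taken as the length.

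Glutamine is deamidated by *Gls2*, the liver glutaminase, and glutamate is deaminated by *Glud1*, glutamate dehydrogenase. *Gls2* (ENSMUSG00000044005, chromosome 10, 128194457 to 128210004, forward strand) was at 608, 474, 424, 577 and 583 CPM in livers 1 to 5. Livers 2 and 3 were lower than the other three. *Glud1* was at 781 to 909 CPM, and the ratio of *Glud1* to *Gls2* was 1.18 ± 0.192 and highest in liver 3. *Asrgl1*, an asparaginase, was at 18.8 to 25.1 CPM and was the lowest of the 39 genes per kilobase.

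The aminotransferases move amino groups to glutamate, and each of the aspartate and alanine pairs has a cytosolic form, *Got1* and *Gpt*, and a mitochondrial form, *Got2* and *Gpt2*. *Got1* was at 255, 219, 191, 209 and 239.7 CPM in livers 1 to 5, and *Got2* at 328, 297, 315, 277 and 299 CPM. Liver 1 was the highest for both. The ratio of *Got1* to *Got2* per kilobase was 0.904 ± 0.0939 and under 1 in every liver, and it turned to 1.397 when all exons were taken as the length. It was lowest in liver 3, at 0.744, and was 0.943 ± 0.0345 without that liver.

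*Gpt* was at 452, 363, 351, 368 and 366 CPM in livers 1 to 5, with liver 1 apart from the others on CPM. *Gpt2* was at 1022, 769, 869.8, 718 and 764 CPM, also with liver 1 as the highest. Per kilobase the alanine pair was at nearly equal levels, 212 ± 22.8 CPM per kilobase and 228 ± 33.4 CPM per kilobase, with a ratio of 0.938 ± 0.0839 that crossed 1 over the livers.

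The serine dehydratase *Sds* (ENSMUSG00000029597, chromosome 5, 120476526 to 120483932, forward strand) turns serine into pyruvate and ammonia, and *Sdsl* is its paralog on the same chromosome, at 120458186 to 120472810 on the opposite strand. *Sds* was at 145, 156, 120.5, 146 and 134 CPM in livers 1 to 5, and *Sdsl* at 8.62, 8.96, 8.56, 7.36 and 9.57 CPM. Liver 3 was the lowest for *Sds* and liver 4 for *Sdsl*. *Sds* exceeded *Sdsl* per kilobase by 18.8 ± 2.83 fold, from 16.0 to 22.7 over the livers.

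The glycine cleavage system splits glycine into carbon dioxide, ammonia and a folate-bound carbon, with *Gldc* as the decarboxylase, *Gcsh* as the lipoyl carrier and *Amt* as the aminomethyltransferase. Levels were 72.3 ± 5.64 CPM per kilobase, 57.1 ± 2.81 CPM per kilobase and 29.1 ± 2.31 CPM per kilobase for *Gldc*, *Gcsh* and *Amt*. The ratio of *Gcsh* to *Gldc* was 0.792 ± 0.0349 and that of *Gcsh* to *Amt* was 1.97 ± 0.0983. Over the 5 livers, these ratios had the smallest CVs of the 14 computed, 4.41 and 5.00%, and the first turned to 1.17 with all exons as the length. Without liver 3, the ratio of *Got1* to *Got2* had a smaller CV than both. *Agxt*, the peroxisomal aminotransferase that removes glyoxylate, was at 198, 157, 134, 181 and 167 CPM in livers 1 to 5, with liver 1 the highest and liver 3 the lowest.

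**Figure D4:**
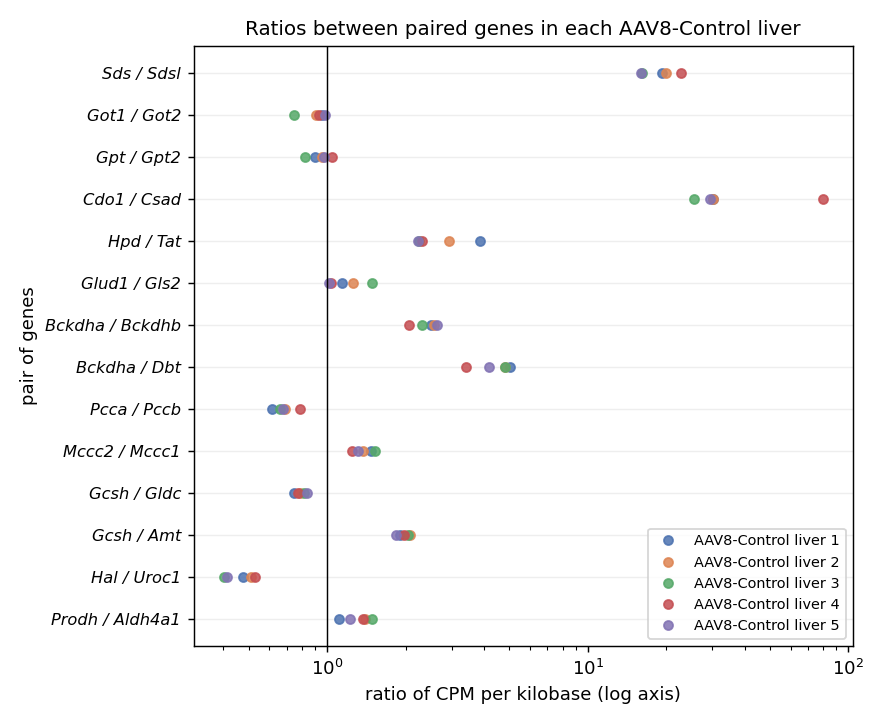
Ratio of CPM per kilobase between 14 pairs of the 39 genes in each of the 5 AAV8-Control livers, on a log axis, with 1 point for each liver and a line at 1. The points of the glycine cleavage pairs lie close together, *Cdo1* to *Csad* has liver 4 far to the right at 79.8, and *Gpt* to *Gpt2* lies on both sides of 1.

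Branched-chain ketoacids are oxidized by a complex whose decarboxylase subunits are *Bckdha* and *Bckdhb* and whose transacylase is *Dbt*. *Bckdha* (ENSMUSG00000060376, chromosome 7, 25629946 to 25658981, reverse strand) was at 281, 259, 242, 229 and 269 CPM in livers 1 to 5. *Bckdhb* was at 78.0 to 87.1 CPM and *Dbt* at 87.0 to 116 CPM. Per kilobase, *Bckdha* exceeded *Bckdhb* by 2.42 ± 0.238 fold and *Dbt* by 4.46 ± 0.663 fold, and did so in every liver.

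Past the complex, *Ivd*, isovaleryl-CoA dehydrogenase, and *Mccc1* and *Mccc2*, the subunits of methylcrotonyl-CoA carboxylase, serve leucine. *Ivd* was at 152 to 210.4 CPM. *Mccc2* had a CV of 2.40%, second lowest of the 39 genes on CPM, where counting error alone would give 2.29%. After scaling by size factors or TMM its CV was the lowest, at 1.77 and 1.75%. *Mccc2* was at 82.7, 78.8, 80.1, 78.8 and 82.5 CPM in livers 1 to 5. *Mccc1* was at 60.7 to 73.2 CPM, and the ratio of *Mccc2* to *Mccc1* was 1.39 ± 0.116, which moved to 4.69 with all exons as the length.

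*Hibch*, *Hibadh* and *Aldh6a1* act in valine breakdown, and *Pcca* and *Pccb* are the subunits of propionyl-CoA carboxylase. *Hibch* was at 95.04 to 108 CPM, *Hibadh* at 348 to 457 CPM and *Aldh6a1* at 481 to 555 CPM. *Pcca* was at 135 to 160.4 CPM. *Pccb* was at 183 to 213 CPM, and the ratio of *Pcca* to *Pccb* per kilobase was 0.684 ± 0.0620 and under 1 in every liver, and it moved to 0.406 with all exons as the length. The 11 branched-chain genes had a median CV of 7.54%, and their levels ran from 27.5 CPM per kilobase for *Mccc1* to 220.2 CPM per kilobase for *Hibadh*. With all exons as the length, *Mccc1* was at 6.17 and *Hibadh* at 39.5 CPM per kilobase, and *Bckdha* was the highest of these genes, at 135 CPM per kilobase.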

How the data were processed

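Poly-A selected RNA of livers was sequenced as single reads of 50 bases. The authors aligned reads to Ensembl release 76 (GRCm38.p2 in the submitters' processing notes) with STAR 2.0.4b, counted unique, unambiguous reads with featureCounts 1.4.5 and deposited CPM. The table had 15236 lines for 15126 genes. Whole reads were recovered for 100% of values (tolerance 0.01 of a read, or 1e-05 of the value above 1000 reads). At the highest counts, such as 64611 reads of *Hpd*, that tolerance lets any value pass, so the check says nothing there. The 5 AAV8-Control livers were described, with means, SDs and CVs of CPM. The comparison of groups that was planned is not reported here, and neither are some genes. For levels between genes, CPM was divided by the length of the longest coding transcript of GENCODE M21 (GRCm38), which also gave positions, and promoters came from RefSeq. Genes averaging 1 CPM or more formed the background. Alternatives were the length of all exons, no filter, scaling by edgeR 4.0.16 (TMM) and by DESeq2 1.42.0 size factors (R 4.3.3), and leaving out each liver. The labels do not state that each library was a separate mouse, so the spread may in part be technical.

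The 39 genes, the marker lists and the 14 ratios were chosen with earlier results of these data known. All 39 genes are named. Values in every liver are given for some of them, chosen after their values were seen, and ranges or means for the others.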

Additional observations from a re-analysis of the deposited data

Results flagged for a closer look

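In 3 of the 39 genes, a single AAV8-Control liver lay farther from the other 4 than Dixon's 95% limit allows, which is 7.69% of them against 5.78% of all genes averaging 1 CPM or more, and chance gives about 1 in 20. After scaling by size factors or TMM, *Csad* was the single gene of the 39 for which this held. *Csad* was at 27.1 CPM in AAV8-Control replicate 4, where the other livers were at 70.2 to 79.5 CPM. *Gpt* was at 452 CPM in AAV8-Control replicate 1, against 351 to 368 CPM in the others. *Aldh4a1* was at 363 CPM in the same liver, against 259.6 to 288 CPM.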

How the results depend on the processing

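Scaling of libraries cancels in a ratio within a liver, and leaving out 1 of 5 livers cannot move a mean by 1 SD, so neither tests the stability of ratios or means. Scaling did move the spread, down for some genes and up for others. With size factors and with TMM, the CV was 2.33 and 2.48% for *Gcsh* and 3.70 and 3.69% for *Fah*, against 4.92 and 6.10% on CPM. It was 4.20 and 4.03% for *Glud1* and 4.10 and 4.11% for *Got2*, against 6.75 and 6.31%. It rose to 9.74% under both for *Pcca*, from 7.54%, and to 9.51 and 9.48% for *Mccc1*, from 8.00%. The median CV of the 39 genes was 8.16% under both against 8.00%. Leaving out 1 liver lowered the CV by over 1.5 times for 17 of the 39 genes, of which *Csad*, *Gpt* and *Aldh4a1* moved most, the last pair to 2.18 and 5.05% without replicate 1. Without replicate 4 the CV of *Csad* was 5.65% in place of 33.3%, and the ratio of *Cdo1* to *Csad* 28.9 in place of 39.1. The choice of length, made after seeing the data, moved 10 of the 14 ratios by over 1 SD. With all exons as the length, the ratio was 14.5 for *Sds* to *Sdsl*, 1.397 for *Got1* to *Got2*, 63.7 for *Cdo1* to *Csad*, 1.81 for *Hpd* to *Tat*, 2.96 for *Bckdha* to *Bckdhb*, 0.406 for *Pcca* to *Pccb*, 4.69 for *Mccc2* to *Mccc1*, 1.17 for *Gcsh* to *Gldc*, 2.10 for *Gcsh* to *Amt* and 0.585 for *Prodh* to *Aldh4a1*. Those of *Got1* to *Got2*, *Gcsh* to *Gldc* and *Prodh* to *Aldh4a1* thereby crossed 1. The median level percentile of the 39 genes was 95.2, 95.7 with all exons and 96.5 with no filter on low values, where more low genes entered. No paired analysis was possible because no groups were compared. Alternatives that concern tests between groups, pseudocounts and a minimum of reads were not run. Depth limits *Sdsl* most, at 168 to 304 reads.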
